A study of Mus musculus with 8 samples.

Results

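The genes described here encode 10 peptides of immature or stressed islet cells, gut endocrine cells or nerves: *Cck*, *Gast*, *Penk*, *Npy*, *Pyy*, *Vip*, *Gal*, *Adcyap1*, *Nmb* and *Cartpt*. They were chosen by symbol, and all 10 were present among the 24091 genes of the deposited count table. The table holds 8 RNA-seq libraries of islets isolated from mice on a C57BL/6 background, 4 from controls labelled wild-type and 4 from mutants labelled Ngn3-Cre, itgb1-/-. The mutants carry floxed alleles of *Itgb1*, which encodes the β1 subunit of integrins. The alleles are recombined by Cre expressed from *Ngn3* in endocrine progenitors, and cells in which this Cre was never active keep the gene. The study names the brain and gastrointestinal tract as other sites of *Ngn3* expression and did not examine deletion there. Whether the nerves of the islets keep the gene was not tested. The mice were 6 weeks old and their islets were cultured overnight after isolation. Whether the controls carried Cre is not given in the sources used here. The labels do not say whether each library came from its own mouse, and p-values therefore describe the spread from library to library, part of which may be technical.

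Peptides of this kind are made as longer precursors, sorted into dense secretory granules, cut by prohormone convertases and released by exocytosis to act on G protein-coupled receptors. In the pancreas, VIP, PACAP (the product of *Adcyap1*), NPY and galanin are best known from the autonomic nerves and small ganglia that supply islets, where VIP and PACAP raise and NPY and galanin lower insulin release. Peptide YY is made by islet endocrine cells as well as by L-cells of the gut, and cholecystokinin and gastrin are hormones of the gut that islet cells can also express, gastrin mainly during development.

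The libraries held 35.1 to 67.6 M counts, with control 2, control 3 and mutant 3 above 50 M and the other 5 below, a division that is used beside the results because the study corrected batches that it does not name. Values are CPM, counts scaled to 1 M reads after TMM scaling of the library size. *Itgb1* was at 394 ± 53.9 CPM across the controls and 235 ± 32.5 CPM in mutants (SD, n = 4 each), a log2 difference of -0.75 (adjusted p = 0.233 by edgeR's test). Reads of exons outside the deleted part and of cells that keep the gene would also be counted, and their part was not tested. The islet hormones summed to between 45746 and 266715 CPM in every library, so the labelled tissue was present. Markers of acinar cells summed to 3555 and 11094 CPM in controls 2 and 3 against 20.1 to 762 CPM in the other 6 libraries. Of 15233 genes with enough counts, 0 passed the quasi-likelihood test of edgeR with a fold change of more than 2 and an adjusted p below 0.05, while 2132, or 14.0%, had an unadjusted p below 0.05, and DESeq2 called 186, or 1.22%. Control 3 and mutant 3 had *Xist* at 1125 and 1225 CPM and the other 6 libraries at 0.313 to 0.752 CPM, so these 2 libraries differ from the rest in sex as well. A difference in a bulk library cannot tell fewer cells of a type from less RNA per cell.

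The levels of the peptide genes spanned several orders of magnitude when counts were divided by gene length. *Pyy* stood far above the rest at 3189 ± 523 CPM per kb in controls (SD, n = 4), followed by *Npy* at 19.3 ± 14.9 and *Vip* at 18.6 ± 17.2 CPM per kb, which did not differ beyond their spread. *Nmb* at 4.01 ± 2.42, *Gal* at 3.52 ± 2.84, *Cartpt* at 2.05 ± 1.16, *Penk* at 2.03 ± 0.419 and *Cck* at 0.897 ± 0.822 CPM per kb formed a lower group in which neighbours again lay within their SDs. *Gast* at 0.472 ± 0.266 and *Adcyap1* at 0.196 ± 0.191 CPM per kb were lowest. In mutants *Pyy* was still first at 3116 ± 1868 CPM per kb, but *Nmb* at 5.17 ± 0.941, *Gal* at 4.16 ± 2.1, *Penk* at 3.24 ± 2.78, *Npy* at 2.8 ± 1.83, *Cck* at 2.59 ± 0.575, *Vip* at 2.27 ± 2.82 and *Cartpt* at 1.73 ± 0.543 CPM per kb lay close together. Reads behind these values ranged from 80 for *Gast* and 153 for *Adcyap1* over all 8 libraries to 630368 for *Pyy*.

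**Figure D1:**
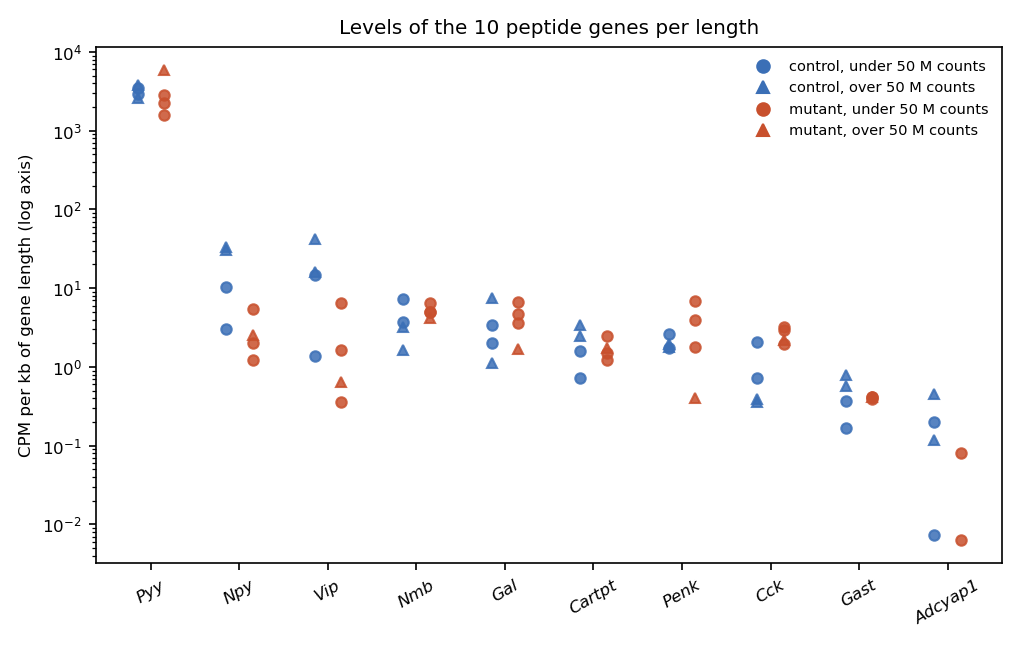
Level of each peptide gene per library, as CPM divided by gene length in kb on a log axis, with controls in blue and mutants in red, circles for libraries under and triangles for those over 50 M counts; the 2 mutant libraries with an *Adcyap1* count of 0 are not drawn. *Pyy* lies near 3189 CPM per kb in controls, far above every other gene.

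*Vip*, *Npy* and *Adcyap1*, which encode the nerve peptides VIP, neuropeptide Y and PACAP, had lower mean levels in *Itgb1*-deleted islets, and the same controls were high for all of them. *Vip*, on the plus strand of chromosome 10 from 5639218 to 5647616 of GRCm38, was at 2.08, 64.7, 24.5 and 22.1 CPM across controls 1 to 4, and at 0.543, 2.5, 0.975 and 9.77 CPM across mutants 1 to 4. Control 1 was as low as the mutants and mutant 4 was above control 1, so the groups overlapped, although 3 of 4 controls lay above every mutant. The log2 fold change of *Vip* was -3.05 (SE 1.10, unadjusted p = 0.0223 and adjusted p = 0.333 by edgeR's quasi-likelihood test), and an exact two-sided permutation test of log2 CPM gave p = 0.0857, where 0.0286 is the smallest that 4 against 4 allow. *Npy*, on the plus strand of chromosome 6 from 49822710 to 49829505, was at 1.69, 17.2, 18.5 and 5.86 CPM across the controls and at 0.678, 1.13, 1.42 and 3.04 CPM in mutants. Again control 1 was the lowest control and mutant 4 the highest mutant, and these 2 libraries were the only ones out of order. The log2 fold change of *Npy* was -2.79 (SE 0.75, unadjusted p = 0.00505 and adjusted p = 0.333 by edgeR's quasi-likelihood test; exact permutation p = 0.0571). Of the 9 peptide genes tested, it was the single one that DESeq2 called, beside 1.22% of all genes. Its log2 fold change there was -2.80, with an adjusted p of 0.00624 by DESeq2.

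*Adcyap1*, on the plus strand of chromosome 17 from 93199017 to 93206537, had 1, 87, 22 and 30 reads in controls 1 to 4 and 1, 0, 0 and 12 reads in mutants 1 to 4. Only controls 2, 3 and 4 and mutant 4 held 10 reads or more, so that it was near the limit of the low count filter, which the controls helped it to pass. In CPM these reads are 0.0259, 1.61, 0.418 and 0.715 in controls and 0.0226, 0, 0 and 0.285 in mutants, and a count of 0 allows up to 0.0722 CPM in mutant 2 and 0.0443 CPM in mutant 3, counting error only. The order was the one seen for *Vip* and *Npy*, with control 1 beside the mutants and mutant 4 above the other mutants. The fitted log2 fold change was -3.32 (SE 1.18, unadjusted p = 0.0189 and adjusted p = 0.333 by edgeR's quasi-likelihood test; exact permutation p = 0.0571), a value that depends on the prior count where a library has no reads. Leaving out 1 library at a time moved it between -6.29, without mutant 4, and -2.48, without control 2. The same libraries set the range for *Vip*, from -4.42 to -2.25, and that of *Npy* ran from -3.32, without mutant 4, to -2.42, without control 3. *Gal*, which encodes galanin and lies on the minus strand of chromosome 19 from 3409917 to 3414457, did not share this pattern. It was at 1.4, 0.779, 5.23 and 2.36 CPM across the controls and 3.23, 4.64, 1.17 and 2.49 CPM in mutants. The highest and the lowest library were both controls, the groups overlapped throughout, and the log2 fold change was 0.23 (SE 0.60, adjusted p = 0.879 by edgeR's quasi-likelihood test).

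**Figure D2:**
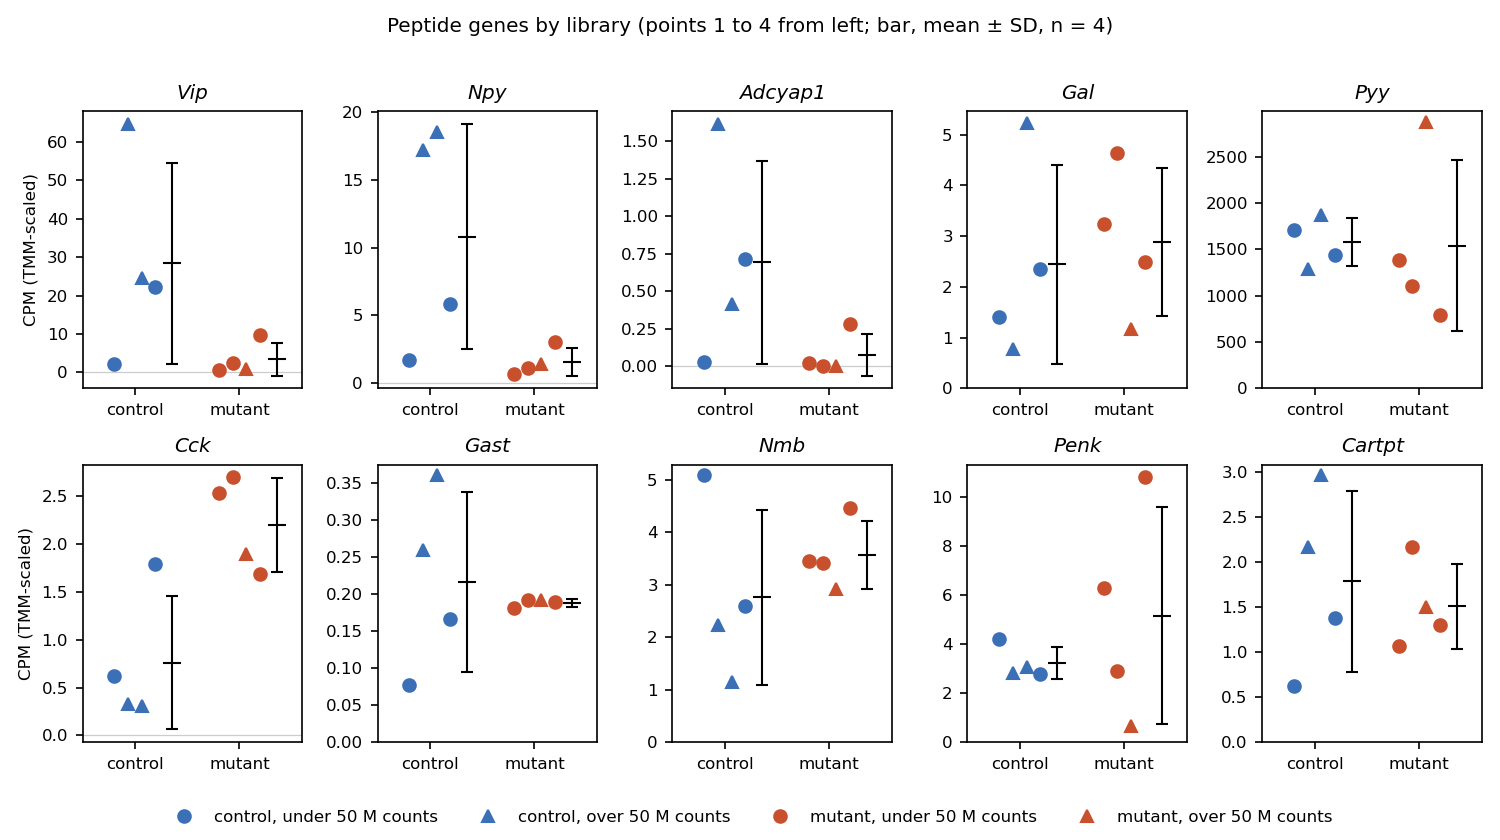
CPM of each of the 10 peptide genes in each library, with replicates 1 to 4 from left to right in each group, triangles for the libraries over 50 M counts, and the mean ± SD (n = 4) beside them. For *Vip*, *Npy* and *Adcyap1* control 1 lies among the mutants and mutant 4 is the highest mutant, and for *Cck* control 4, at 1.79 CPM, lies among the mutants.

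The genes with the pattern most like that of *Vip* over the 8 libraries included genes known from autonomic neurons. Likeness was measured as the root mean square difference of log2 CPM after each gene was centred on its own mean, which had a median of 2.27 over all genes tested against *Vip*. The closest were *Chrna3*, a subunit of the nicotinic receptor of ganglia (0.425), *Slc10a4* (0.541), *Slc18a3*, the vesicular acetylcholine transporter (0.687), *Prph*, a neuronal intermediate filament (0.689), and *Stmn2*, a protein of growing axons (0.715). For *Npy*, with a median of 1.65, they were *Nsg2* (0.503), *Lrrn3* (0.519), *Sncg* (0.543), *Rbfox1* (0.576) and the neurofilament gene *Nefl* (0.611). *Npy* ranked 14th by likeness to *Vip* and *Adcyap1* 17th, whereas *Cck* ranked 14839th and *Gal* 12631st of the genes tested. *Chrna3* was at 0.285, 8.31, 2.28 and 3.24 CPM across controls 1 to 4, and 0.0678, 0.337, 0.0591 and 2.18 CPM across mutants 1 to 4. *Prph* was at 0.778, 14.4, 4.16 and 6.99 CPM across the controls and 0.497, 0.65, 0.414 and 3.61 CPM in mutants.

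Markers of neurons were lower on average in mutants. *Slc18a3*, *Prph*, *Stmn2* and *Nefl*, named above for their likeness to *Vip* or *Npy*, are among these markers. The markers were also listed after values were seen, so their levels are not separate support for that likeness. Of 14 markers listed, 12 could be tested, all 12 had lower mean levels in mutants, and 7 had an unadjusted p below 0.05 by edgeR's quasi-likelihood test, all lower, against 7.19% of all genes in that direction. Of the 12, 0 passed the adjusted threshold. Their median log2 fold change was -1.52, beside 0.00153 over all genes tested, and within the 5 libraries under 50 M counts it was -0.47. There 10 of the 12 had negative log2 fold changes, and *Elavl4* alone had an unadjusted p below 0.05. *Chat*, the enzyme that makes acetylcholine, had 5, 47, 8 and 16 reads in controls 1 to 4 and 0, 3, 0 and 8 in the mutants, and was the one marker at 0 in any library. The summed level of the 14 markers was 87.9, 226, 157 and 111 CPM across the controls and 71.9, 97.5, 118 and 88.3 CPM in mutants. That sum is carried by *Elavl4*, *Nefm*, *Tubb3* and *Th*, which islet endocrine cells can also express and which had log2 fold changes of -0.19, -0.20, -0.18 and -1.51. Glial markers went the other way, where the median over 9 genes was 1.01 on the log2 scale. Of the 9, 3 were higher with an unadjusted p below 0.05 by edgeR's test, beside 6.8% of all genes. Among the 3 were *Cdh19* at 1.01 and the transcription factor gene *Foxd3* at 1.14. Acinar markers had a similar order, with sums of 20.1, 3555, 11094 and 305 CPM across controls 1 to 4, and 109, 84.7, 125 and 762 CPM across mutants 1 to 4. Control 1 was again the lowest control and mutant 4 the highest mutant. The part of the neuronal and the acinar RNA in the levels of *Vip*, *Npy* and *Adcyap1* was not tested.

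**Figure D3:**
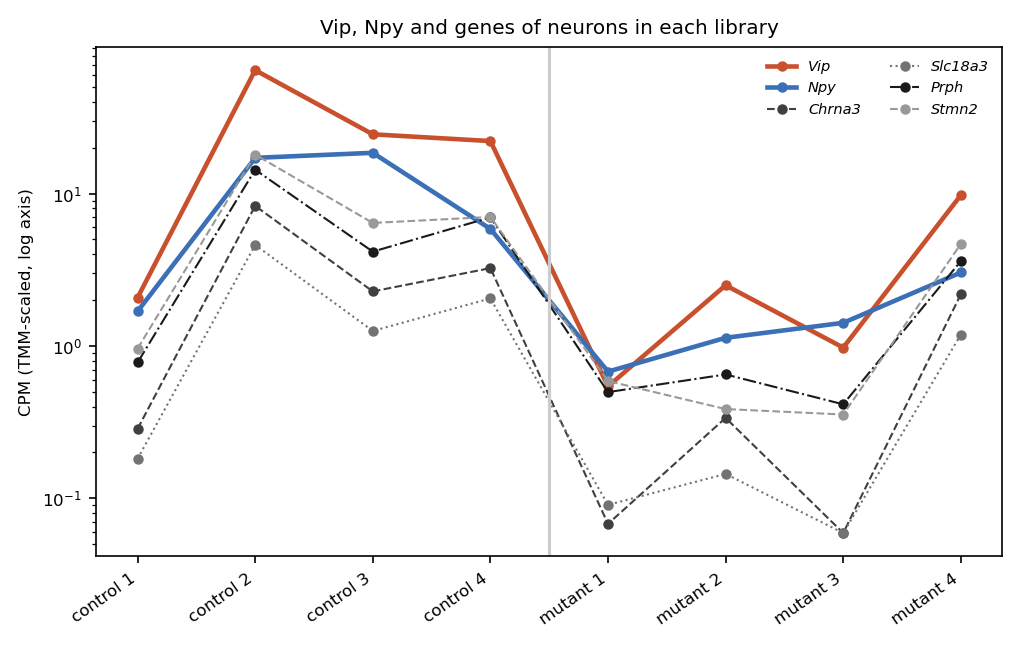
CPM on a log axis of *Vip* and *Npy* (thick lines) and of *Chrna3*, *Slc18a3*, *Prph* and *Stmn2* (thin lines), 4 of the 5 genes most like *Vip*, in each library; lines only join the points of a gene. All are high in controls 2, 3 and 4 and low in control 1 and mutants 1 to 3, with mutant 4 between, where *Vip* is at 9.77 CPM and *Prph* at 3.61 CPM.

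Upstream sequences are shown for the 4 peptide genes with an unadjusted p below 0.05, as those of *Vip*, *Npy* and *Adcyap1* moved together and *Cck* in the other direction. Each is the 250 bases before the annotated start in RefSeq for GRCm38.p6, read 5′ to 3′ on the strand of the gene, and capitals mark TGACG on either strand (CGTCA on the other), the core of the cAMP response element:
Vip (chr10:5638968-5639217, plus strand): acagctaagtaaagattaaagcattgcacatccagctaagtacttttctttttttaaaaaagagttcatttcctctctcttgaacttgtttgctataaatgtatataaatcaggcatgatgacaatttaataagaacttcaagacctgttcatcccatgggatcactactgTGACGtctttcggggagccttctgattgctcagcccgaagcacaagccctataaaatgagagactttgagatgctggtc
Adcyap1 (chr17:93198767-93199016, plus strand): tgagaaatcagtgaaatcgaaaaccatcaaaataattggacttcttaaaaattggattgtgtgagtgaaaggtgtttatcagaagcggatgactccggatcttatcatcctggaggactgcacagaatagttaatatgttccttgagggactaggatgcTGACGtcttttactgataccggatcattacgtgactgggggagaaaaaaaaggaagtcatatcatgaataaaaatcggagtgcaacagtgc
Npy (chr6:49822460-49822709, plus strand): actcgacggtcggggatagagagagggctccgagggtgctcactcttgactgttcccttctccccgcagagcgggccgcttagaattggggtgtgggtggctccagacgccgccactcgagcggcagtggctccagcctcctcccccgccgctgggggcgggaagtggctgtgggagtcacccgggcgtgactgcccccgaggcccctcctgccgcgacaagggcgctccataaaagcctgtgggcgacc
Cck (chr9:121495695-121495944, minus strand): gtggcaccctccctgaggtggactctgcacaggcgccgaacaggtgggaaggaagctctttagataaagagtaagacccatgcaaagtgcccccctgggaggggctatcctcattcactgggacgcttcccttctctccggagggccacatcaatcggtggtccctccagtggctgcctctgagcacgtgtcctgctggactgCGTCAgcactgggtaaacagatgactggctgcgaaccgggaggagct

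The core begins 79 bases before the start in *Vip*, 91 in *Adcyap1* and 47 in *Cck*, and does not occur in the *Npy* window. Of the 10 genes 9 had a window in RefSeq (*Penk* had none), and the core was present in 4 of them, the other being *Cartpt*, against 17.8% of 32851 windows of that length over all genes. *Cartpt* was the one member with the whole palindrome TGACGTCA, which 1.55% of windows hold. The core was present in genes with lower levels (*Vip*, *Adcyap1*), with a higher level (*Cck*) and with overlapping levels (*Cartpt*) in mutants.

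*Cck*, the gene of cholecystokinin, was the one peptide gene with a higher level in *Itgb1*-deleted islets with an unadjusted p below 0.05, where 6.8% of all genes were higher. It lies on the minus strand of chromosome 9 from 121489824 to 121495694. It was at 0.623, 0.334, 0.304 and 1.79 CPM in controls 1 to 4, from 24, 18, 16 and 75 reads, and at 2.53, 2.69, 1.89 and 1.68 CPM in mutants 1 to 4, from 112, 112, 128 and 71 reads. Controls 1, 2 and 3 lay below every mutant, and control 4 lay just above mutant 4. The means were 0.762 ± 0.699 CPM across the controls and 2.2 ± 0.489 CPM in mutants (SD, n = 4 each), and the log2 fold change was 1.55 (SE 0.54, unadjusted p = 0.0195 and adjusted p = 0.333 by edgeR's quasi-likelihood test; 0.144 from DESeq2; exact permutation p = 0.0571). Leaving out 1 library at a time moved it between 1.29, without control 3, and 2.41, without control 4. Without controls 2 and 3 together it was 0.84 (unadjusted p = 0.0999 by edgeR's test). Markers of fibroblasts and pericytes summed to 310.4 to 477 CPM across the controls and 631 to 858 CPM in mutants. Of the 7 markers 6 were higher with an unadjusted p below 0.05 by edgeR's test, beside 6.8% of all genes. The part of these cells in the level of *Cck* was not tested.

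*Gast*, which encodes gastrin, a hormone that shares its receptor-binding end with cholecystokinin, did not have enough counts to be tested. It lies on the plus strand of chromosome 11 from 100334407 to 100336997 and had 3, 14, 19 and 7 reads in controls and 8, 8, 13 and 8 in mutants. The mutants were all between 0.181 and 0.192 CPM, inside the range of the controls of 0.0778 to 0.361 CPM, and a difference was not detectable at this depth (exact permutation p = 0.971).

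*Pyy*, the gene of peptide YY and the most abundant of the 10, lies on the minus strand of chromosome 11 from 102106676 to 102107776. It was at 1711, 1293, 1868 and 1442 CPM across controls 1 to 4, and at 1390, 1107, 2880 and 793 CPM across mutants 1 to 4. Mutant 3 was the highest of all libraries and the other 3 mutants were among the lowest 4, so that the means of 1579 ± 259 and 1543 ± 925 CPM (SD, n = 4 each) hide a split. The log2 fold change was -0.03 (SE 0.37, adjusted p = 0.973 by edgeR's quasi-likelihood test). It was -0.53 (SE 0.23, unadjusted p = 0.0647 from that test) within the 5 libraries under 50 M counts, and 0.89 for mutant 3 against controls 2 and 3. A term for unequal change in the 2 sets of libraries had an unadjusted p of 0.0164 and an adjusted p of 0.0862 by edgeR's test, so it did not pass, and 31.3% of all genes had an unadjusted p below 0.05 for it. *Ppy*, the pancreatic polypeptide gene of the same family, was likewise highest in mutant 3 at 4515 CPM and at 1172.6 to 1781 CPM in the other mutants, against 2629 to 3805 CPM in controls. The genes with the pattern most like *Pyy* were *Fignl1* (root mean square difference 0.0979), *Wdr17* (0.177), *Racgap1* (0.19), *Gstt1* (0.192) and *Cep131* (0.195), with a median of 0.594 over all genes.

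*Penk*, *Nmb* and *Cartpt*, which encode the enkephalin precursor, neuromedin B and the CART peptide, overlapped between the groups. *Penk*, on the minus strand of chromosome 4 from 4133536 to 4138815, was at 4.2, 2.82, 3.08 and 2.79 CPM across the controls and 6.29, 2.89, 0.635 and 10.8 CPM in mutants. The controls lay close together and the mutants held both the highest and the lowest library. The log2 fold change of *Penk* was 0.67 (SE 0.67, adjusted p = 0.637 by edgeR's quasi-likelihood test), and without mutant 3, the library at 0.635 CPM, it was 1.05 (unadjusted p = 0.0376 and adjusted p = 0.275 by that test). Without mutant 4, the library at 10.8 CPM, it was 0.011 (unadjusted p = 0.986), and these were the ends of the range over the 8 fits that left out 1 library. Of 1634 exon bases of *Penk*, 233 also lie in *A830012C17Rik* on the other strand in GENCODE M21, and reads of that overlap cannot be told apart without strand.

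*Nmb*, on the minus strand of chromosome 7 from 80902227 to 80905062, was at 5.09, 2.23, 1.14 and 2.6 CPM across the controls and 3.46, 3.42, 2.91 and 4.46 CPM in mutants. All 4 mutants lay above controls 2, 3 and 4 and below control 1. The log2 fold change of *Nmb* was 0.37 (SE 0.41, adjusted p = 0.671 by edgeR's quasi-likelihood test), and 163 of its 793 exon bases are shared with *Sec11a* on the same strand, so its count is uncertain. *Cartpt*, on the minus strand of chromosome 13 from 99898483 to 99900683, was at 0.623, 2.17, 2.96 and 1.38 CPM across the controls and 1.06, 2.17, 1.51 and 1.3 CPM in mutants. The mutants lay inside the range of the controls, with a log2 fold change of -0.26 (SE 0.45, adjusted p = 0.803 by edgeR's quasi-likelihood test).

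In the fit to the 8 libraries, 4 of the 9 genes tested had an unadjusted p below 0.05 (*Cck* higher, and *Vip*, *Npy* and *Adcyap1* lower), beside 14.0% of all genes, and 0 of 10 had no overlap between the groups, beside 8.2% of all genes. The median log2 fold change of the 9 was -0.03. *Adcyap1* passed the low count filter with the help of the controls, where it was higher. A filter of at least 1 CPM in 4 libraries dropped it, and 3 of 8 were then below 0.05, beside 14.0% of all genes. With a term for the library division, *Cck* was at 1.47 (unadjusted p = 0.011 by edgeR's test), *Npy* at -2.07 (0.0243), *Adcyap1* at -3.11 (0.0352) and *Vip* at -2.61 (0.0879), so that 3 of 9 were below 0.05, beside 15.2% of all genes. Within the 5 libraries under 50 M counts the log2 fold changes were 0.91 for *Cck*, -1.25 for *Npy*, -1.89 for *Adcyap1* and -1.53 for *Vip*. Their unadjusted p-values were 0.092, 0.135, 0.211 and 0.234 from that test, and 0 of 9 were below 0.05, beside 23.3% of all genes. The count was also 0 of 9 without controls 2 and 3, the libraries rich in acinar RNA, beside 8.17% of all genes. In that fit *Npy* was at -1.29 and *Vip* at -1.86. Leaving out 1 library at a time, *Cck* and *Npy* were below 0.05 in all 8 fits. *Vip* and *Adcyap1* were both above 0.05 without control 2, mutant 2 or mutant 3, and *Adcyap1* also without mutant 1.

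**Figure D4:**
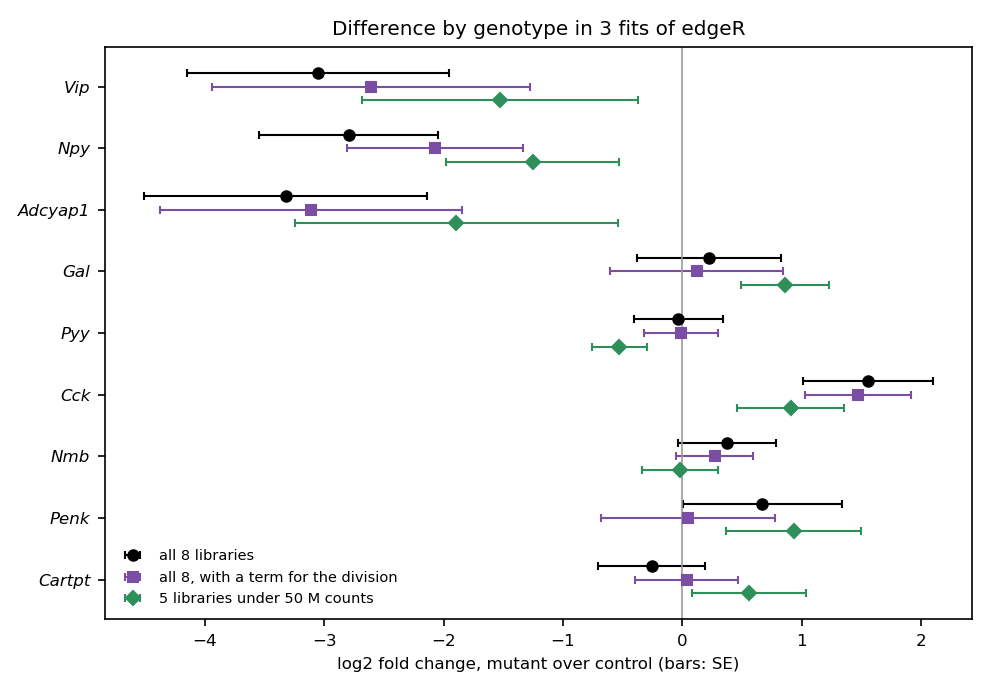
Log2 fold change, mutant over control, with its SE for the 9 peptide genes tested, from edgeR over the 8 libraries, over the 8 with a term for the library division, and within the 5 libraries under 50 M counts. *Vip*, *Npy* and *Adcyap1* lie below 0 and *Cck* above 0 in all 3 fits, at -1.53, -1.25, -1.89 and 0.91 within the 5 libraries, while *Gal*, *Pyy*, *Nmb* and *Cartpt* change side or lie nearer 0 and *Penk* is spread widely.

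Of 17 genes for receptors of these peptides 8 had enough counts to be tested, and 2 were lower and 0 higher with an unadjusted p below 0.05, beside 7.19% of all genes lower. *Galr1*, a galanin receptor that inhibits insulin release, was at 15.6, 27.6, 28 and 15.4 CPM across the controls and 10.2, 12.6, 14.9 and 11 CPM in mutants. Every mutant lay below every control, with a log2 fold change of -0.83 (SE 0.25, unadjusted p = 0.00905 and adjusted p = 0.333 by edgeR's quasi-likelihood test), and within the 5 libraries under 50 M counts it was -0.46 (unadjusted p = 0.00915 by that test). *Cckar*, the cholecystokinin receptor of acinar cells, was at 1.47 and 6.14 CPM in controls 2 and 3, the libraries rich in acinar markers, and at 0.0778 to 0.262 CPM in the other 6. Its log2 fold change was -3.67 over all 8 libraries and 0.10 within the 5. *Vipr1*, a receptor of VIP and PACAP, was the most abundant at 45.8 to 125 CPM across the controls and 49.9 to 73.7 CPM in mutants (log2 fold change -0.33). The PACAP receptor gene *Adcyap1r1* was at -0.06, the galanin receptor gene *Galr3* at 0.15, *Vipr2* at 0.39, *Npy1r* at -0.42 and the opioid receptor gene *Oprm1* at -1.12, with adjusted p-values of 0.475 to 0.949 by edgeR's test. The median log2 fold change of the 8 was -0.38, beside 0.00153 over all genes, but it was -0.22 with a term for the library division and 0.054 within the 5 libraries.

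The machinery that makes and stores such peptides had lower means in mutants over all 8 libraries for 10 of its 12 genes. Of 12 genes 1 was higher and 4 lower with an unadjusted p below 0.05 by edgeR's test, beside 6.8% and 7.19% of all genes. The median log2 fold change of the 12 was -0.58. Within the 5 libraries under 50 M counts 3 were higher and 1 lower, beside 23.3% of all genes in either direction, with a median of 0.00147. *Chga*, the granule protein chromogranin A, was at -1.43 and at -0.24 within the 5 libraries. *Pcsk1n*, which encodes an inhibitor of prohormone convertase, was at -0.74, and *Vgf*, a granule protein of neurons and endocrine cells, at 0.72 (unadjusted p = 0.028 and adjusted p = 0.333 by edgeR's test).

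Of 30 other gut and neural peptide genes 10 had enough counts to be tested, with a median log2 fold change of 0.36. Of the 10, 1 was higher and 0 lower with an unadjusted p below 0.05 by edgeR's test, beside 6.8% and 7.19% of all genes. *Adm*, the vasodilator adrenomedullin, was at 2.52, 1.09, 1.88 and 5.86 CPM across controls 1 to 4, and 12.8, 23.8, 1.18 and 29.5 CPM across mutants 1 to 4. Mutants 1, 2 and 4 lay above every control and mutant 3 below all but control 2, with a log2 fold change of 2.57 (SE 0.86, adjusted p = 0.333 by edgeR's quasi-likelihood test, and 0.0395 when DESeq2 was used). *Apln*, the apelin gene of endothelial tip cells, was at 1.77 and *Tac1*, which encodes substance P, at -1.20.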

How the data were processed

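RNA was measured in 8 libraries of isolated mouse islets, 4 controls and 4 mutants, grouped by their titles. According to the study's methods and the submitters' processing notes, the authors depleted ribosomal RNA, trimmed single-end reads with Trimmomatic and FASTP, aligned them with STAR to GRCm38 and obtained gene counts from featureCounts with its default settings, which use no strand; the annotation is not given in the sources used here. The deposited values are raw counts per gene with gene coordinates and length. A second deposited table holds the authors' own comparison (fold changes, p-values and CPM) and was not used.

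Here all 24091 genes were read, 15233 passed edgeR's low count filter, and genotype was tested by quasi-likelihood in edgeR 4.0.16 (R 4.3.3) after TMM scaling, with Benjamini-Hochberg adjustment over all genes tested; DESeq2 1.42.0 was an alternative. SEs were derived from each fold change and its F statistic. Exact permutation tests used log2(CPM + 0.1), 10 tests in all, unadjusted. Scripts were tested on simulated counts. Named besides the peptide genes are all tested receptors, the 3 genes of smallest p in each list (1 of them is not reported here), the 5 genes most like each of the 3 most abundant members, and *Itgb1*; cell markers, *Ppy*, *Xist* and, for their overlap, *Sec11a* and *A830012C17Rik* were added after values were seen. The members and lists were chosen with earlier results of these data known. Intervals and floors cover counting error only.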

Additional observations from a re-analysis of the deposited data

Results flagged for a closer look

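Of 56 groups of 4 libraries (10 peptide genes and 18 gene lists in each genotype), 3 held a library that stood far from the other 3 of its group by Dixon's criterion, where chance flags about 1 in 20. *Adcyap1* was at 0.285 CPM in mutant 4 and at 0 to 0.0226 CPM in the other mutants. The summed level of the 30 other gut and neural peptides was 67.1 CPM in mutant 3 and 246 to 273 CPM in the other mutants. The summed acinar markers were at 762 CPM in mutant 4 and at 84.7 to 125 CPM in the other mutants.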

How the results depend on the processing

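The number of genes past the threshold was 0 with edgeR's test on all 8 libraries, 186 with DESeq2, 3 with a term for the library division and 10 within the 5 libraries under 50 M counts; it was 0 in each fit that left out 1 library. The number of peptide genes at an unadjusted p below 0.05 was 4 under 6 of the alternatives (RLE factors, total counts, DESeq2, the older form of the test, no low count filter, and the replicate number as a block), 3 when at least 1 CPM in 4 libraries was required, which drops *Adcyap1*, and with the division as a term, 0 within the 5 libraries and without controls 2 and 3 (the latter chosen after seeing the data), 5 within the 3 libraries over 50 M counts, whose lone mutant is assumed to vary like the controls, and 2 to 5 leaving out each library, with 2 without control 2 or without mutant 2. Of 95 other listed genes 16 had such a p over all 8 libraries, beside 14.0% of all genes tested. Not all of the 95 had enough counts to be tested: 8 of 17 receptor genes, 10 of 30 other peptide genes and 5 of 10 serotonin and gut endocrine genes did. The count was 9 with the division as a term, beside 15.2% of all genes, and 4 without controls 2 and 3, beside 8.17%. Leaving out each library it was 7 to 26, beside 7.9% to 18.9% of all genes. *Npy* passed the adjusted threshold in DESeq2 alone (log2 fold change -2.80, adjusted p = 0.00624; adjusted p over all settings 0.00624 to 0.668). Directions turned for peptide genes that passed the adjusted threshold in no fit: *Pyy* was at 0.12 with total counts, which moved the median of all genes by 0.15, at 0.89 within the 3 libraries and at -0.53 to 0.18 leaving out each library; *Cartpt* was at 0.034 with the division as a term, 0.56 within the 5 libraries, 0.57 without controls 2 and 3 and -0.53 to 0.076 leaving out each library; *Nmb* was at -0.019 within the 5 libraries and -0.11 without controls 2 and 3; *Penk* was at -2.19 and *Gal* at -1.33 within the 3 libraries, and *Gal* at -0.11 to 0.93 leaving out each library. The cause was not tested. *Vip*, *Npy* and *Adcyap1* were lower and *Cck* higher in every setting that gave a value. With the replicate number as a block the 4 peptide genes were the same, *Vip* at -3.19 and *Npy* at -2.53; libraries of the same number had correlated deviations of 0.42, -0.02, 0.45 and 0.25, not every library correlated best with its own number, and nothing says that a number marks a shared animal. Depth limits *Gast* and *Adcyap1*, with 80 and 153 reads in all.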

Other observations

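The summed level of genes that respond to cAMP and calcium signals was highest in the same 2 controls as *Npy*. It was 5273 CPM in control 3 and 1766 CPM in control 2, against 515 to 1516 CPM in the other 6 libraries. A link between these genes and *Npy* was not tested. Of the 12 genes tested for genotype, 3 were lower and 0 higher with an unadjusted p below 0.05 by edgeR's test over all 8 libraries, beside 7.19% and 6.8% of all genes. The median log2 fold change of the 12 was -0.41. Within the 5 libraries under 50 M counts 7 were higher and 0 lower, beside 23.3% of all genes in either direction, with a median of 0.46. *Fosb*, an immediate early transcription factor, was at 381 and 2148 CPM in controls 2 and 3 and at 11.5 to 56.6 CPM in the other 6 libraries, and *Nr4a1* and *Per1* were at -1.70 and -1.05 on the log2 scale.

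Of 10 genes linked to immature or dedifferentiated islet cells, 7 had higher and 3 lower mean levels in mutants. With an unadjusted p below 0.05 from edgeR's quasi-likelihood test, 3 were higher and 1 lower, beside 6.8% and 7.19% of all genes. Of the 10, 0 passed the adjusted threshold. *Hk1*, a hexokinase that mature β-cells keep low, was at 1.29 (unadjusted p = 0.00679 and adjusted p = 0.333 from that test) and *Ldha*, lactate dehydrogenase A, at 2.23. Of the 7 islet hormone genes 0 had such a p, and *Gcg*, *Sst* and *Ins1* were at -1.59, -0.95 and -1.52 with adjusted p-values of 0.375 to 0.382 from edgeR's test. DESeq2 gave *Gcg* an adjusted p of 0.0385. Within the 5 libraries under 50 M counts *Ins1* was at 0.23, and the median of the hormone genes was 0.16 there against -0.95 over all 8. Of 10 genes of serotonin and gut endocrine cells 5 were tested, and 1 was lower with an unadjusted p below 0.05 by edgeR's test, beside 7.19% of all genes. It was *Slc18a2*, the vesicular monoamine transporter, at 0.104, 2.17, 0.627 and 0.715 CPM in controls and 0.203, 0.12, 0.192 and 0.451 CPM in mutants. That order was close to the order of *Vip*. *Ddc* was at -1.10 and *Fev* at -0.24.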
